A study of Homo sapiens with 6 samples.

Results

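The matrix metalloproteinases and their tissue inhibitors, the TIMPs, were followed in cells labelled Huh7, a hepatocellular carcinoma line, after SRSF10 was lowered. The 10 genes were MMP1, MMP2, MMP7, MMP9, MMP10, MMP14, MMP15, TIMP1, TIMP2 and TIMP3, taken by symbol from a table of 60623 genes, and each symbol had 1 row. SRSF10 knockdown was the genotype of 3 libraries, and the series title points to a short hairpin RNA (shSRSF10). They were set against 3 control libraries with the genotype WT and titles beginning with NC, for which no label states whether a control hairpin was delivered. Both groups came from the same labelled line with no further treatment, and no label tells whether a group's libraries are separate cultures. The p-values therefore rest on a spread that may be technical. In bulk RNA, fewer cells making a transcript and less of it per cell cannot be told apart.

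Matrix metalloproteinases are zinc-dependent endopeptidases that cleave collagens, basement membrane proteins, adhesion molecules and growth factor carriers. They are made as inactive precursors, many of which are switched on outside the cell by other proteases. TIMPs block the enzymes by binding the active site. In the liver the balance between the 2 classes is known for its part in fibrosis and in invasion by carcinoma cells. RNA levels do not show how much of an enzyme is active.

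Values are FPKM, fragments scaled to gene length and to library size, as the authors deposited them. SRSF10 (an SR-type splicing factor) was at 10.6, 10.8 and 10.6 FPKM in the knockdown libraries, against 18.6, 19.5 and 19.8 FPKM in the controls and fell by 44.8% (limma adjusted p = 0.000166). An exact permutation test, two-sided, gave p = 0.1, which is the lowest that 3 against 3 libraries allow. Low values gave an estimated depth of 12720000 to 14350000 fragments per library. Mitochondrially encoded genes held 27.5% to 29.7% of the summed FPKM. The liver markers TTR, APOA2 and GPC3 were listed at 0 in every library and AFP and ALB stayed under 1 FPKM, whereas the hepatocyte transcription factor HNF4A was at 4.23 to 6.22 FPKM, so the label is met only in part. Of 12 hepatocyte markers 4 were at 1 FPKM or more in all libraries, and the 12 summed to 26.3 to 26.9 FPKM in the knockdown and 25.5 to 25.8 FPKM in the controls. The 5 epithelial markers, mostly KRT8 and KRT18, summed to 675 to 733 FPKM in the knockdown and 707 to 745 FPKM in the controls. The summed level of 8 fibroblast and stellate cell markers was 9.57 to 10.6 FPKM in knockdown libraries and 4.18 to 5.24 FPKM in controls. LUM made up most of it, at 8.75 FPKM or more in the knockdown libraries and at most 5.11 FPKM in the controls. COL3A1 (0.345 to 0.442 FPKM in the knockdown, 0.0408 to 0.0867 FPKM in the controls), DCN (0.102 to 0.250 and 0.00554 to 0.0376 FPKM in knockdown and control cells) and COL1A1 (0.0718 to 0.172 and 0 to 0.0142 FPKM in knockdown and control cells) were also higher in every knockdown library than in every control. COL1A2, PDGFRB and ACTA2 stayed under 0.1 FPKM and DES was listed at 0. That of 5 endothelial markers was 9.56 to 10.8 FPKM in knockdown libraries and 5.49 to 6.17 FPKM in controls, carried by PECAM1 and KDR. The summed 6 macrophage and leukocyte markers were at 1.95 to 2.70 FPKM in knockdown libraries and at 1.23 to 1.56 FPKM in controls, mostly ITGAM. The part of these markers in the results was not tested.

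Start-site windows show how unlike the members are in their proximal DNA. RefSeq promoter sequences on GRCh38.p14, from 250 bases before the start site to 50 after it, were matched for 6 of the 10 members, which were MMP7, MMP10, MMP14, MMP15, TIMP1 and TIMP3. MMP1, MMP2, MMP9 and TIMP2 had no entry. Below are 2 genes from the chromosome 11 cluster, MMP7 (chr11:102530698-102530997, minus strand) and MMP10 (chr11:102780579-102780878, minus strand). After them come an inhibitor whose RNA was higher in the knockdown, TIMP1 (chrX:47582186-47582485, plus strand), and one whose RNA was lower, TIMP3 (chr22:32801455-32801754, plus strand). They are written 5′ to 3′ along the gene. Capitals mark matches to an AP-1 site (TGAGTCA or TGACTCA, the same site on either strand), TATAAA on the gene strand, an ETS core (AGGAAG or CTTCCT) and a GC box (GGGCGG or CCGCCC), none of which overlap each other.
MMP7: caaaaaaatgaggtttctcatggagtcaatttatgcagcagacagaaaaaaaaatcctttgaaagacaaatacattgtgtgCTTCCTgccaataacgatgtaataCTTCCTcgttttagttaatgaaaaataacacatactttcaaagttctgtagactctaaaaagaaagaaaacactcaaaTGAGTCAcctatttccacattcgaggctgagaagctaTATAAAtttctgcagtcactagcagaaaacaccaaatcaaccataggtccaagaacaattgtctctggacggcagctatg
MMP10: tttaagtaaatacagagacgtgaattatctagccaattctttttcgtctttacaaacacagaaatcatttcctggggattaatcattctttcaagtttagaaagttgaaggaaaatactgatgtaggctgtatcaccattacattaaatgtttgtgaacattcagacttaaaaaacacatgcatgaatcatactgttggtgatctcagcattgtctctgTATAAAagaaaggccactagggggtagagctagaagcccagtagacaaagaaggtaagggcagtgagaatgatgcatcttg
TIMP1: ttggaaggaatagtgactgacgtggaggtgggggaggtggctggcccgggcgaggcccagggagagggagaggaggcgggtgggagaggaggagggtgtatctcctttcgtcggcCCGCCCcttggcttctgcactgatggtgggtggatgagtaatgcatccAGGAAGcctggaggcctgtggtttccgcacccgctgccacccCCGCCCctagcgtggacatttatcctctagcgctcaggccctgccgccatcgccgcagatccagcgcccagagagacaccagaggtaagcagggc
TIMP3: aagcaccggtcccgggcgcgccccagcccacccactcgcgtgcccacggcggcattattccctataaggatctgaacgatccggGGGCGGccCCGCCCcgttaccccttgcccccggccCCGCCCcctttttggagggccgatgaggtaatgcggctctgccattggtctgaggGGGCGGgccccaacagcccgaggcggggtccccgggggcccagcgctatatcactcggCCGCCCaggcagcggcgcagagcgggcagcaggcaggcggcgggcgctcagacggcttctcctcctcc
The MMP7 and MMP10 windows were AT-rich, with 35.7% and 36.3% G and C. Each had TATAAA, starting 30 bases (MMP7) and 31 bases (MMP10) before the start site, a match found in 7.33% of 35116 promoter windows of this length. MMP7 alone among the 6 matched members had an AP-1 match, 67 bases before the start site, which 4.95% of all windows had. It also had 2 ETS matches and TIMP1 had 1, a motif present in 33.6% of windows. The TIMP1 and TIMP3 windows were GC-rich, at 65.0% and 72.7%, with 2 and 5 GC-box matches. The enzyme MMP15 had the highest share of G and C of the 6, at 75.3%, and MMP14 had 55.0%. The median over all windows was 58.7%. MMP15 had 5 GC-box matches and MMP14 had 1, against 45.0% of all windows with at least 1. A match is a description of letters, and no match says only that those letters are not in the window.

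Of the 10 genes 8 had at least 1 FPKM in at least 3 libraries and were tested, and these 8 were above 1 FPKM in all 6 libraries. In the knockdown 5 of them rose (MMP1, MMP7, MMP14, TIMP1 and TIMP2) and 2 fell (MMP2 and TIMP3) at an adjusted p under 0.05 (limma across 12191 genes, Benjamini-Hochberg). MMP15 did not pass, and MMP9 and MMP10 were below the filter. Over all tested genes 12.6% rose and 12.5% fell, 25.2% in all. The median log2 fold change was 0.38 over the 5 tested metalloproteinases and 0.46 over the 3 TIMPs, against -0.01 over all tested genes. These medians are the values of MMP14, whose call was lost in 5 of 14 alternatives, and of TIMP1. Fold changes are differences of log2(FPKM + 1), knockdown minus control, which understates the change of low genes. In each of the 8 the values of the groups did not overlap, as was so for 42.7% of all tested genes. Both enzymes and inhibitors were thus found on each side.

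**Figure D1:**
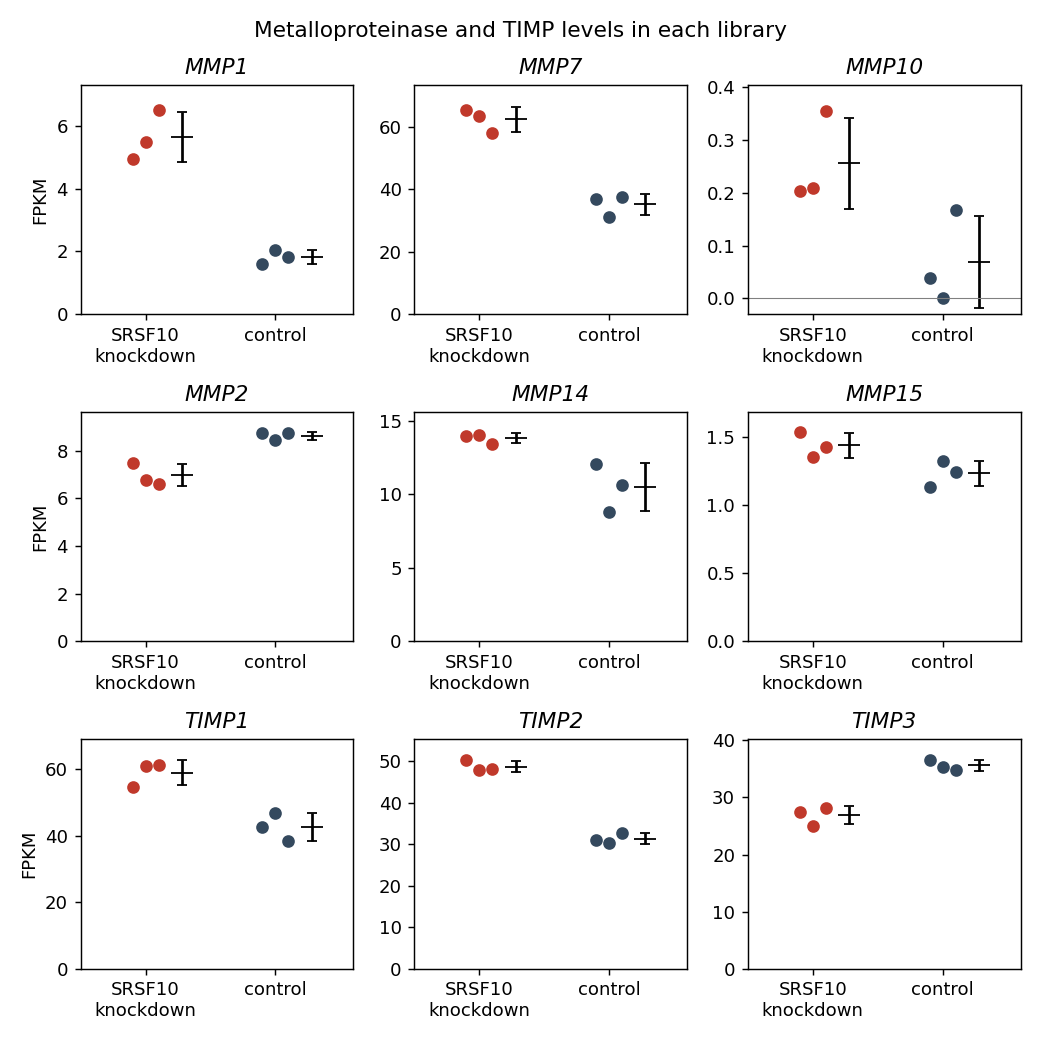
FPKM (vertical axes, from 0, for MMP10 drawn just below 0 to show the error bar) of 9 members in each of 3 SRSF10 knockdown libraries (red, left) and 3 control libraries (dark, right), with mean ± SD beside the points. Knockdown points lie above the control points in MMP1, MMP7, MMP10, MMP14, MMP15, TIMP1 and TIMP2 and below them in MMP2 and TIMP3, and the MMP10 axis reaches only 0.4 FPKM.

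MMP1, the interstitial collagenase that makes the first cut in fibrillar collagens, had the largest change of the tested members. It lies on GRCh38 chromosome 11, 102789920 to 102798160, minus strand (ENSG00000196611, GENCODE 29). MMP1 had 4.93, 5.48 and 6.51 FPKM in the knockdown libraries, against 1.59, 2.04 and 1.84 FPKM in the controls. Every knockdown library stood far above the highest control. Means were 5.64 ± 0.81 FPKM in the knockdown and 1.82 ± 0.22 FPKM in the controls (SD, n = 3 each), a ratio of 3.10. On the log2 scale MMP1 rose by 1.23 (SE 0.10, limma adjusted p = 0.000685), and 0.574% of tested genes changed more. With a pseudocount of 0.1 it was 1.58. These levels rest on an estimated 136, 146 and 163 fragments in the knockdown libraries and 45, 51 and 49 in the controls. Exons of MMP1 share 150 bases with WTAPP1 on the other strand, which was at most at 0.044 FPKM.

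MMP7, or matrilysin, is a small metalloproteinase that lacks the hemopexin domain of most of the family and is made by epithelial cells. MMP7 (ENSG00000137673), on the minus strand of chromosome 11 from 102520508 to 102530753, stood at 65.5, 63.7 and 58.1 FPKM in the knockdown, against 36.9, 31.3 and 37.5 FPKM in the controls. The groups lay well apart, with the control group's low value in replicate 2. The ratio of means was 1.77 and the log2 fold change 0.81 (SE 0.078, limma adjusted p = 0.000995). MMP7 was by far the most abundant enzyme of the set. It made up 67.2% to 70.0% of the summed FPKM of the 7 metalloproteinases in the knockdown libraries and 60.3% to 62.4% in the controls.

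MMP10, or stromelysin-2, is encoded next to MMP1 (ENSG00000166670, chromosome 11, 102770503 to 102780628, minus strand). It was below the filter, at 0.203, 0.209 and 0.356 FPKM in the knockdown and 0.0395, 0 and 0.168 FPKM in the controls. These correspond to an estimated 5, 5 and 8 fragments in the knockdown libraries and 1, 0 and 4 in the controls. Fitted with no filter, the log2 fold change was 0.23 (95% interval 0.035 to 0.43, limma adjusted p = 0.189), so a difference was not detectable at this depth. MMP10 is a close relative of MMP1 and MMP3, and reads that fit more than 1 of them could have been placed on either.

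The cluster around these genes was mostly silent. From MMP7 to MMP13 it holds 9 metalloproteinase genes between 102520508 and 102955734 on chromosome 11. Of the 6 that are no member, MMP8 was listed at 0 in every library and MMP3, MMP12, MMP13, MMP20 and MMP27 stayed under 0.17 FPKM. MMP20, an enamel protease, was at 0.168, 0.115 and 0.092 FPKM in the knockdown and 0.0272, 0 and 0.0578 FPKM in the controls. On the MMP7 side the ubiquitin ligase gene BIRC3 rose, at 14.0 ± 1.6 FPKM in the knockdown and 4.82 ± 0.86 FPKM in the controls (log2 fold change 1.38, limma adjusted p = 0.000884). Between BIRC3 and MMP7, BIRC2 and TMEM123 did not pass the test, with log2 fold changes of -0.09 and -0.06. YAP1 and DCUN1D5 at the outer ends did not pass either (0.11 and -0.11).

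**Figure D2:**
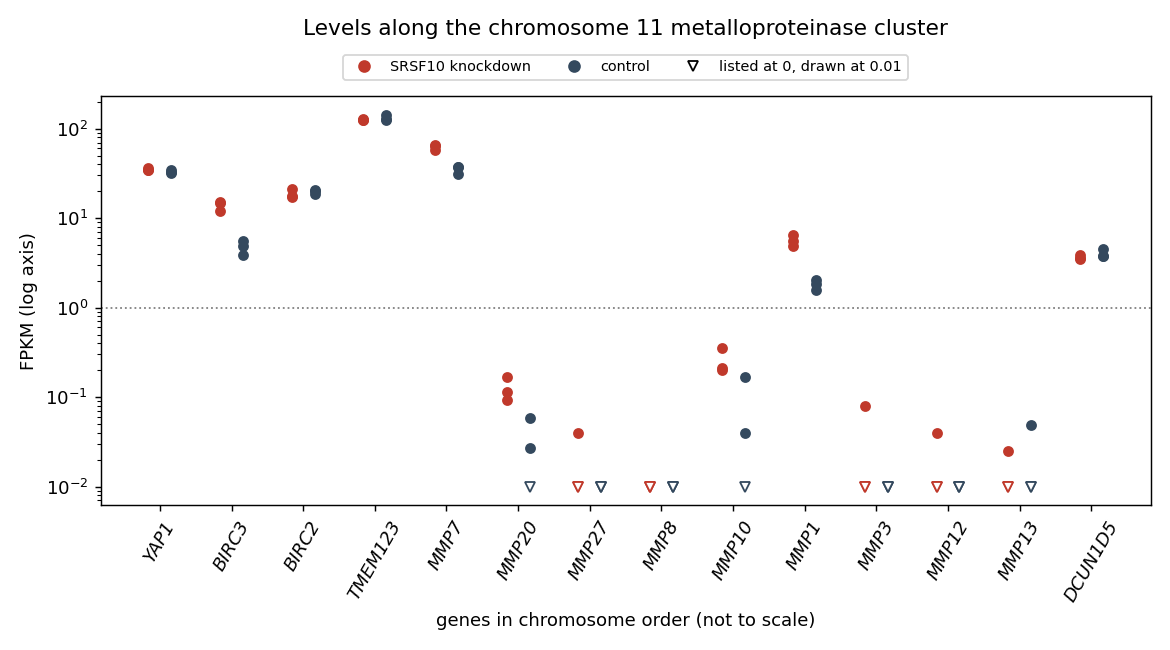
FPKM on a log axis for 14 genes in chromosome order along the metalloproteinase cluster of chromosome 11, with 3 knockdown libraries (red) left of 3 control libraries (dark) for each gene. Open triangles are values listed at 0, and the dotted line is the 1 FPKM filter. BIRC3, MMP7 and MMP1 stand above the line with their groups apart, and the metalloproteinases between and beyond them lie below it.

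The gelatinases MMP2 and MMP9 cleave denatured collagen and basement membrane collagen. MMP2 (ENSG00000087245, chromosome 16, 55389700 to 55506691, plus strand) was at 7.50, 6.77 and 6.62 FPKM in the knockdown, against 8.72, 8.44 and 8.72 FPKM in the controls. Every knockdown library was below every control, by a smaller margin than for the genes above. The mean fell by 19.3% (log2 fold change -0.28, SE 0.053), with a limma adjusted p of 0.0112. MMP9 (ENSG00000100985, chromosome 20, 46008908 to 46016561, plus strand) was listed at 0 in all 6 libraries. At the estimated depths a count of 0 allows up to 3 fragments in a library, or 0.0895 to 0.101 FPKM, counting error only. Of MMP9 exon bases 18.4% are shared with SLC12A5-AS1 on the other strand, which was also listed at 0. With no counter or strand setting given, the bound does not cover reads that may have been set aside there.

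The membrane-type enzymes MMP14 and MMP15 sit on the cell surface, where MMP14 activates the MMP2 precursor with TIMP2 as a bridge. MMP14 (ENSG00000157227, chromosome 14, 22836557 to 22849027, plus strand) was at 14.0, 14.1 and 13.4 FPKM in the knockdown and 12.1, 8.79 and 10.6 FPKM in the controls. The knockdown libraries were close together, whereas the controls were spread, again with replicate 2 lowest. The coefficient of variation was 2.53% in the knockdown and 15.7% in the controls, where counting alone gives 3.47% and 3.96% at the estimated depths. The ratio of means was 1.32 and the MMP14 log2 fold change 0.38, with an SE of 0.099 (limma adjusted p = 0.0334). This call was lost without knockdown replicate 1, 2 or 3 (adjusted p = 0.094, 0.0963 and 0.0809), without control replicate 3 (0.0707) and with no filter (0.107), over a range of 0.0162 to 0.107. MMP15 (ENSG00000102996, chromosome 16, 58025566 to 58046901, plus strand) was at 1.54, 1.35 and 1.42 FPKM in the knockdown and 1.13, 1.32 and 1.24 FPKM in the controls. Its values nearly met, and the log2 fold change of 0.13 had a 95% interval of -0.064 to 0.32 (limma adjusted p = 0.299).

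TIMP2, which both inhibits MMP2 and takes part in its activation, had the smallest adjusted p of the set. TIMP2 (ENSG00000035862), on the minus strand of chromosome 17 from 78852977 to 78925387, stood at 50.3, 47.8 and 48.1 FPKM in the knockdown, against 31.1, 30.3 and 32.7 FPKM in the controls. The libraries of each group lay within a few FPKM of each other and the groups were far apart. The ratio of means was 1.55 and the log2 fold change 0.62, with a standard error of 0.041 (limma adjusted p = 0.000346). Of TIMP2 exon bases 3.52% are shared with CEP295NL on the same strand, which was at most at 0.544 FPKM, and 6.52% with AC022966.1 on the other strand, which was listed at 0.

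TIMP1, a secreted inhibitor that also binds the MMP9 precursor and the tetraspanin CD63, rose as well. TIMP1 (ENSG00000102265, chromosome X, 47582313 to 47586789, plus strand) was at 54.8, 61.0 and 61.4 FPKM in the knockdown and 42.6, 46.8 and 38.4 FPKM in the controls. Here control replicate 2 was the highest control, unlike for MMP7 and MMP14. The ratio of means was 1.39 and the log2 fold change 0.46 (SE 0.078, limma adjusted p = 0.00677). TIMP1 lies inside the SYN1 gene on the opposite strand without shared exon bases, and SYN1 was at most at 0.0394 FPKM.

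TIMP3, which binds to the matrix and also inhibits ADAM17 and aggrecanases, fell. TIMP3 (ENSG00000100234, chromosome 22, 32801701 to 32863043, plus strand) was at 27.5, 25.1 and 28.2 FPKM in the knockdown, against 36.7, 35.4 and 34.8 FPKM in the controls. All 3 knockdown values were below all 3 control values. The mean fell by 24.4% (log2 fold change -0.39, SE 0.05), with a limma adjusted p of 0.00267. TIMP3 shares no exon bases with SYN3, the gene it lies within, which was at most at 0.201 FPKM.

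**Figure D3:**
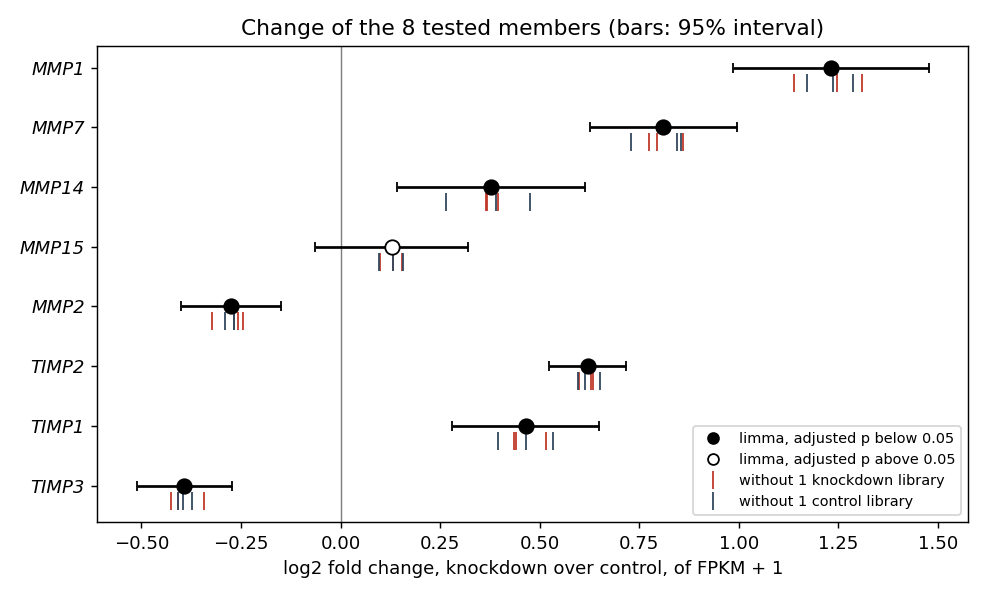
Log2 fold change, knockdown over control, of FPKM + 1 for the 8 tested members (circles, filled where the adjusted p is under 0.05) with 95% intervals. Ticks below each circle give the value without 1 knockdown library (red) or 1 control library (dark). MMP1 lies furthest right at 1.23, MMP2 and TIMP3 lie left of 0, and the interval of MMP15 crosses 0.

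FPKM is a level per length, so members can be ranked within a group. In the knockdown the order was MMP7 (62.4 FPKM), TIMP1 (59.0), TIMP2 (48.7), TIMP3 (26.9), MMP14 (13.8), MMP2 (6.96), MMP1 (5.64), MMP15 (1.44) and MMP10 (0.256), with MMP9 at 0. Among these neighbours only MMP7 and TIMP1 overlapped between libraries. In the controls the order was TIMP1 (42.6 FPKM), TIMP3 (35.6), MMP7 (35.2), TIMP2 (31.4), MMP14 (10.5), MMP2 (8.63), MMP1 (1.82), MMP15 (1.23) and MMP10 (0.0691), with MMP9 at 0. There TIMP3 overlapped with MMP7, MMP7 with TIMP2, and MMP10 with MMP9. TIMP3 thus ranked 4 in the knockdown and 2 in the controls, and MMP1 stayed below MMP2 in both groups. The 3 TIMPs summed to 133, 134 and 138 FPKM in the knockdown libraries and 110, 112 and 106 FPKM in the controls. The 7 metalloproteinases summed to 93.7, 91.6 and 86.4 FPKM in the knockdown and 60.5, 51.9 and 60.1 FPKM in the controls. Within the TIMP sum, TIMP3 made up 18.7% to 20.8% in the knockdown libraries and 31.5% to 33.2% in the controls. The ratio of MMP2 to TIMP2 was 0.149, 0.142 and 0.138 in the knockdown libraries and 0.280, 0.279 and 0.266 in the controls. The ratio of MMP1 to TIMP1 was 0.0900, 0.0899 and 0.106 in the knockdown and 0.0373, 0.0435 and 0.0477 in the controls. That of MMP7 to TIMP1 overlapped between the groups, at 0.946 to 1.20 in the knockdown and 0.670 to 0.975 in the controls. MMP14 to TIMP2 overlapped too, at 0.278, 0.294 and 0.279 in the knockdown and 0.388, 0.290 and 0.324 in the controls, with the lower mean in the knockdown. The metalloproteinase sum over the TIMP sum did not overlap, at 0.707, 0.684 and 0.628 in the knockdown and 0.548, 0.462 and 0.567 in the controls. MMP7 made up 67.2% to 70.0% of the metalloproteinase sum in the knockdown and 60.3% to 62.4% in the controls. This ratio therefore largely follows MMP7, and no ratio without MMP7 is given. Among single tested genes, 42.7% had groups that did not overlap. These sums and ratios of RNA levels are descriptions and say nothing of protein.

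The rest of the family was scarce. Of 17 other metalloproteinase and TIMP genes 15 were below the filter. MMP24, a membrane-type enzyme, rose, at 6.48 ± 0.25 FPKM in the knockdown and 4.84 ± 0.13 FPKM in the controls (log2 fold change 0.36, limma adjusted p = 0.00305). Its exons share 18.1% of their bases with MMP24OS on the other strand, which reached 2.35 FPKM, and with no strand setting given those reads cannot be told apart. TIMP4, the remaining inhibitor, fell, at 1.97 ± 0.56 FPKM in the knockdown and 3.78 ± 0.86 FPKM in the controls (log2 fold change -0.69, limma adjusted p = 0.0268). The TIMP4 call was lost without knockdown replicate 1 or 2 or control replicate 1 or 2 (adjusted p = 0.053 to 0.0771) and in 6 of 13 alternatives in all. TIMP4 shares 10.3% of its exon bases with SYN2 on the other strand, which was at most at 0.231 FPKM. Among other inhibitors and clearance receptors 0 of 4 tested genes passed. The membrane inhibitor RECK was at 1.76 ± 0.03 FPKM in the knockdown and 1.78 ± 0.27 FPKM in the controls, and LRP1, which clears protease complexes, at 11.6 ± 0.45 and 11.5 ± 1.5 FPKM in knockdown and control cells.

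In the plasminogen system, which activates several metalloproteinase precursors, 3 of 7 tested genes rose and 1 fell. The shares over all tested genes were 12.6% and 12.5%. The activator PLAU was at 22.6 ± 0.78 FPKM in the knockdown and 15.7 ± 3.9 FPKM in the controls (limma adjusted p = 0.0427), and its receptor PLAUR at 4.65 ± 0.41 FPKM in the knockdown and 3.67 ± 0.24 FPKM in the controls (limma adjusted p = 0.0325). The PLAU call was lost without knockdown replicate 1, 2 or 3 or control replicate 1 or 2 (adjusted p = 0.0796 to 0.122). In all it was lost in 8 of 14 alternatives, with a limma adjusted p of up to 0.137. The PLAUR call was lost without any 1 of the 6 libraries (0.0572 to 0.0864) and in 7 of 13 alternatives in all. ANXA2, a surface receptor for plasminogen and its activator, fell to 217 ± 9.2 FPKM in the knockdown, against 257 ± 3.4 FPKM in the controls. PLG itself was listed at 0.

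Of 7 tested proprotein convertases and serine protease activators 1 rose and 0 fell, against 12.6% and 12.5% of all tested genes. FURIN, which cuts the precursors of membrane-type enzymes, was at 14.1 ± 0.62 FPKM in the knockdown and 15.0 ± 2.5 FPKM in the controls (limma adjusted p = 0.641). PCSK5 rose to 1.37 ± 0.15 FPKM in the knockdown, against 0.723 ± 0.080 FPKM in the controls (limma adjusted p = 0.0147). Only its knockdown values brought it past the filter. The PCSK5 call was lost without knockdown replicate 2 or 3 or control replicate 1 or 3 (0.0507 to 0.0737) and in 5 of 13 alternatives in all. FURIN was named after its values were seen.

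Among surface partners and inducers 6 of 14 tested genes rose and 0 fell, with a median log2 fold change of 0.14. The shares over all tested genes were 12.6% and 12.5%. The call of CD9, which is counted among the 6, was lost in 4 of 14 alternatives. BSG (EMMPRIN), a glycoprotein known as an inducer of metalloproteinases, rose to 98.8 ± 2.6 FPKM in the knockdown, against 80.0 ± 3.9 FPKM in the controls (log2 fold change 0.30, limma adjusted p = 0.00408). TSPAN12, a tetraspanin that binds MMP14, was at 2.53 ± 0.29 FPKM in the knockdown and 1.15 ± 0.24 FPKM in the controls (limma adjusted p = 0.00481). CD63, the TIMP1 partner, was at 169 ± 4.0 FPKM in the knockdown and 142 ± 6.3 FPKM in the controls (limma adjusted p = 0.00628), and was named after its values were seen. The integrin subunit ITGB3 and the tight junction protein CLDN1 also rose, with limma adjusted p = 0.00305 and 0.00378. ITGB3 was at 1.67 ± 0.21 FPKM in the knockdown and 0.458 ± 0.15 FPKM in the controls, and CLDN1 at 1.18 ± 0.052 and 0.331 ± 0.074 FPKM in knockdown and control cells. Only the knockdown values brought these 2 past the filter. CD44, a docking site for MMP9 and MMP14, was at 67.6 ± 0.86 FPKM in the knockdown and 67.1 ± 4.7 FPKM in the controls, and was also chosen after its values were seen.

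Of 12 tested ADAM and ADAMTS proteases, related families of which TIMP3 inhibits some members, 4 rose and 1 fell. The shares over all tested genes were 12.6% and 12.5%. ADAM28 was at 3.50 ± 0.28 FPKM in the knockdown and 1.06 ± 0.23 FPKM in the controls (log2 fold change 1.13, limma adjusted p = 0.000785). ADAM19 was at 2.80 ± 0.13 FPKM in the knockdown and 1.25 ± 0.30 FPKM in the controls, and ADAM12 at 3.21 ± 0.19 and 2.12 ± 0.15 FPKM in knockdown and control cells. ADAMTS14, which trims procollagen, was at 1.63 ± 0.29 FPKM in the knockdown and 0.127 ± 0.038 FPKM in the controls, and only the knockdown values passed the filter. ADAMTS12 fell (log2 fold change -0.26, limma adjusted p = 0.0412), a call lost without knockdown replicate 1, 2 or 3 or control replicate 1 or 2 (0.0821 to 0.115). In all the ADAMTS12 call was lost in 7 of 13 alternatives. ADAM17, the sheddase named above, was at 3.58 ± 0.16 FPKM in the knockdown and 3.58 ± 0.37 FPKM in the controls.

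Of 19 tested matrix genes whose products these enzymes cut 11 rose and 2 fell, with a median log2 fold change of 0.30. Over all tested genes 12.6% rose and 12.5% fell. Among the 11, the LAMC1 call was lost in 10 of 14 alternatives and the COL5A2 call in 5 of 14. The laminin chain LAMB1 rose to 96.7 ± 0.46 FPKM in the knockdown, against 59.8 ± 4.7 FPKM in the controls (log2 fold change 0.69, limma adjusted p = 0.000678). COL6A2 was at 58.5 ± 1.5 FPKM in the knockdown and 40.3 ± 2.1 FPKM in the controls, and the basement membrane linker NID1 at 35.4 ± 0.84 and 24.7 ± 1.6 FPKM in knockdown and control cells. Tenascin C (TNC) was at 2.12 ± 0.27 FPKM in the knockdown and 0.186 ± 0.090 FPKM in the controls, and only the knockdown values passed the filter. Another laminin chain, LAMB2, fell to 3.93 ± 0.15 FPKM in the knockdown, against 6.93 ± 0.71 FPKM in the controls (log2 fold change -0.68, limma adjusted p = 0.00137). Fibronectin (FN1), named after its values were seen, was at 1407 ± 14 FPKM in the knockdown and 1148 ± 135 FPKM in the controls (FN1 log2 fold change 0.30, limma adjusted p = 0.0401). That call was lost in 8 of 14 alternatives, among them leaving out knockdown replicate 1, 2 or 3 (0.0974 to 0.106), and quantile normalization gave a log2 fold change of 0.06. The list median of 0.30 is the FN1 value. The fibrillar collagen genes COL1A1, COL1A2 and COL3A1, the classical substrates of MMP1, stayed under 0.45 FPKM in every library.

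Transcription factors known to act on metalloproteinase promoters moved both ways. Of 26 tested AP-1, ETS, NF-kB and related factors 8 rose and 5 fell, against 12.6% and 12.5% of all tested genes. Among the 8, the ELK3 call was lost in 6 of 14 alternatives. The calls of CEBPB and STAT3 were each lost in 5 and that of NFKB2 in 3. The immediate early factor EGR1 fell to 10.4 ± 1.5 FPKM in the knockdown, against 37.0 ± 3.7 FPKM in the controls. JUN, an AP-1 subunit, fell to 24.9 ± 2.1 FPKM in the knockdown, against 41.1 ± 4.3 FPKM in the controls (log2 fold change -0.70, limma adjusted p = 0.00233). ETS2 fell to 11.2 ± 0.22 FPKM in the knockdown, against 15.8 ± 0.47 FPKM in the controls, and ETS1 rose to 10.9 ± 0.45 FPKM in the knockdown, against 8.17 ± 0.089 FPKM in the controls. FOSL1, the most abundant FOS relative in the list, was at 45.7 ± 3.1 FPKM in the knockdown and 47.6 ± 3.9 FPKM in the controls (limma adjusted p = 0.63) and was named after its values were seen.

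**Figure D4:**
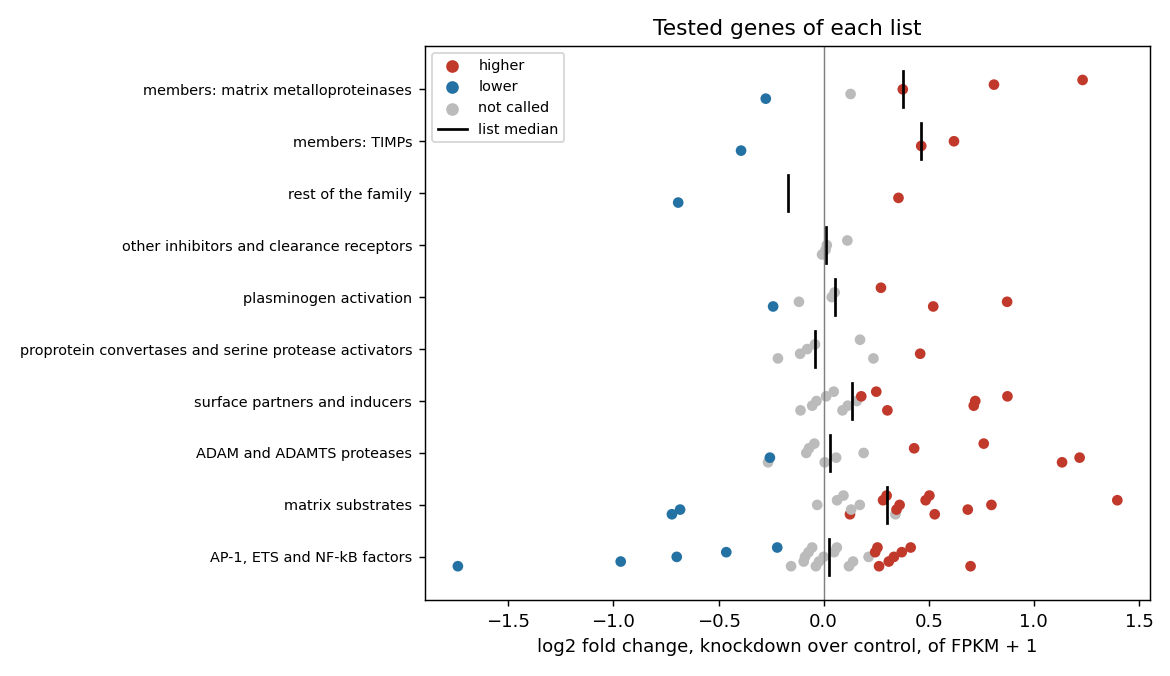
Log2 fold change, knockdown over control, of FPKM + 1 for each tested gene of the member lists and 8 related lists. Red points rose and blue points fell at an adjusted p under 0.05, grey points did not pass, vertical position within a list has no meaning, and black bars are list medians. The matrix substrates have 11 red points and a median of 0.30, and the other inhibitors have grey points only.

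For each member that passed, the tested protein-coding genes with the most similar values over the 6 libraries were found by the root mean square difference of log2(FPKM + 1), each gene centred on its own mean. For MMP1 they were PNPLA3, NCEH1 and RENBP, at 0.11 to 0.12, where the root mean square deviation of MMP1 itself was 0.63. For MMP7, whose own deviation was 0.42, they were C4BPA, FADS2 and EVA1A, at 0.043 to 0.058. LAMA5, UBALD2 and PTGFRN were nearest to MMP14, at 0.039 to 0.052, and CLCN4, A1CF and BTG1 to TIMP1, at 0.042 to 0.048. ZNF469, RIPK2 and SULT1C2 were nearest to TIMP2, at 0.016 to 0.021. Of the members that fell, MMP2 was closest to ERCC6L2, MRPS2 and SHROOM3, at 0.017 to 0.023, and TIMP3 to TYMS, MRPS25 and GDAP1, at 0.025 to 0.033. No member was among the 3 nearest genes of another. This measure counts the size of the change, which differed among the members, so it cannot tell whether they vary together.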

How the data were processed

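RNA-seq was done on 6 samples, 3 knockdown and 3 control. TRIzol extraction, the Vazyme VAHTS Universal V6 library kit and an Illumina NovaSeq instrument are named per the labels' protocols. FastQC 0.11.9, Trim Galore 0.6.5-1 and the GRCh38 build are listed per the submitters' processing notes. Aligner, counter, annotation release and strand setting: not given in the sources used here. Values were deposited by the authors as FPKM, scaled to gene length and library total, in 1 series table and in 6 sample files that hold identical values. Because the scale is relative, more of an abundant transcript lowers all others.

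Genes with at least 1 FPKM in at least 3 libraries were fitted with limma 3.58.1 in R 4.3.3 on log2(FPKM + 1), with a trend and the group as the only term. The steps were tested on simulated data. Positions and exon overlaps come from GENCODE 29 on GRCh38, and depth was estimated as the value that made low FPKM whole fragments (87.8% to 88.4% within 0.05, where chance gives 10%). That count is an estimate, so no count model was run. Protein sequences were not analysed here. SciPy 1.17.1 gave the permutation test. The members, gene lists and alternatives were chosen with earlier results of these data known. In each list up to 4 called genes with the smallest adjusted p are named, with the first of the other direction. Some genes that the counts include are not reported here by name. Genes outside this rule that were named for their function are RECK, LRP1, PLG, ADAM17, COL1A1, COL1A2 and COL3A1. CD9, LAMC1, COL5A2, ELK3, CEBPB, STAT3 and NFKB2 are named because their calls were lost under alternatives.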

Additional observations from a re-analysis of the deposited data

How the results depend on the processing

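Over 14 alternatives 4 or 5 members rose and 2 fell, and no member changed sign. Of 110 member values under an alternative 105 kept their call. The other 5 are the losses of MMP14 given above, and MMP1 and MMP15 were not tested with a 5 FPKM filter. SRSF10 stayed lower in each (log2 fold change -0.85 to -0.78). Over all genes 966 to 1343 were higher and 941 to 1342 lower when 1 library was left out, with a filter of 1 FPKM in 2 libraries. With no filter 1013 were lower. Other scalings, a pseudocount of 0.1, a 5 FPKM filter and no trend kept the counts of all genes within 1.5 times. The list genes that are no member, an addition made after seeing the data, numbered 24 to 36 higher and 7 to 11 lower. In the main fit they were 35 and 10 of 96 tested, where 12.6% of all tested genes were higher and 12.5% lower. Of the 35, 5 passed the filter only through their knockdown values. Same-numbered libraries did not deviate together (r = 0.016, 0.057 and -0.071 across genes for replicates 1, 2 and 3), and no hint of pairing by number was seen. With the replicate number as a block 1193 genes were higher and 1146 lower, 5 members rose and 2 fell, and SRSF10 was at -0.80. Depth limits MMP10, with at most 8 estimated fragments, and MMP9, with none.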
